A study of Mus musculus with 6 samples.

Results

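The genes described here are 2 glucose transporter genes, Slc2a1 and Slc2a3, and 8 genes that act inside the cell on glucose or its products, namely Hk2, Aldoa, Aldoc, Pgk1, Eno1, Eno2, Ldha and Pdk1. They were chosen by name, and a gene counted as found when its symbol stood in any of the 4 deposited lists of called genes. All 10 were found, among 1167 distinct symbols in the 4 lists. The lists come from otocysts, the epithelial vesicles that give rise to the inner ear, of mouse embryos of the B6129SF1/J strain at embryonic day 10.5. RNA was sequenced as polyadenylated transcripts in 2 libraries each of Chd7Gt/Gt, Chd7Gt/+ and Chd7+/+ embryos, which carry 2, 1 and 0 copies of the Gt allele of the chromatin remodeller gene Chd7. In mouse nomenclature Gt stands for a gene trap, and the labels name no further allele or agent. Whether both libraries of 1 genotype stem from different embryos is not stated in the labels, so the p-values speak of these libraries, whose spread may be technical. Each mutant genotype was compared with the same 2 Chd7+/+ libraries, and the values are the authors' log2 fold changes, mutant over wild type, with adjusted p-values. No values per library were used, which leaves the depth unknown and each fold change without a spread between replicates.

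Glycolysis turns glucose into pyruvate and yields ATP without oxygen. Transporters of the Slc2 family let glucose into the cell, hexokinase traps it as a phosphate, aldolase divides the phosphorylated sugar, phosphoglycerate kinase makes ATP, enolase forms the precursor of pyruvate, and lactate dehydrogenase converts pyruvate to lactate and so regenerates the NAD that the pathway needs. Pyruvate dehydrogenase kinase holds pyruvate back from the mitochondrial citric acid cycle. Several of these genes are known targets of the hypoxia-inducible factors, transcription factors that accumulate when oxygen is low, and early embryonic tissue is known to rely heavily on glycolysis.

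In homozygotes the targeted gene Chd7 fell by 2.16 on the log2 scale (adjusted p 1.54e-10, from the authors' deposited table), and in heterozygotes it fell by 0.57 (adjusted p 7.27e-07, from the authors' deposited table). All 10 glucose and glycolysis genes were listed as higher in Chd7Gt/Gt than in Chd7+/+ otocysts, by 2.37-fold to 18.3-fold according to the authors' deposited table. Their median log2 fold change was 2.29, a 4.89-fold rise, where the median of all 416 genes listed as higher was 1.31, or 2.47-fold, according to the authors' deposited table. No gene of the 10 was listed in either direction in Chd7Gt/+ otocysts, so no heterozygous value stands beside the homozygous ones, and the difference between the genotypes was not tested. As background, the homozygous lists held 1.78% of annotated protein-coding genes as higher and 2.97% as lower, and the heterozygous lists 0.182% as higher and 0.428% as lower. How many genes the authors tested is not given in the sources used here, so these shares are of 21951 annotated genes and would be larger among expressed genes. Among the 1085 genes listed in homozygotes, 38.3% were higher. The 10 names were picked with earlier results of these data known, so that 10 of 10 is a description and not support for a rise of the pathway.

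**Figure D1:**
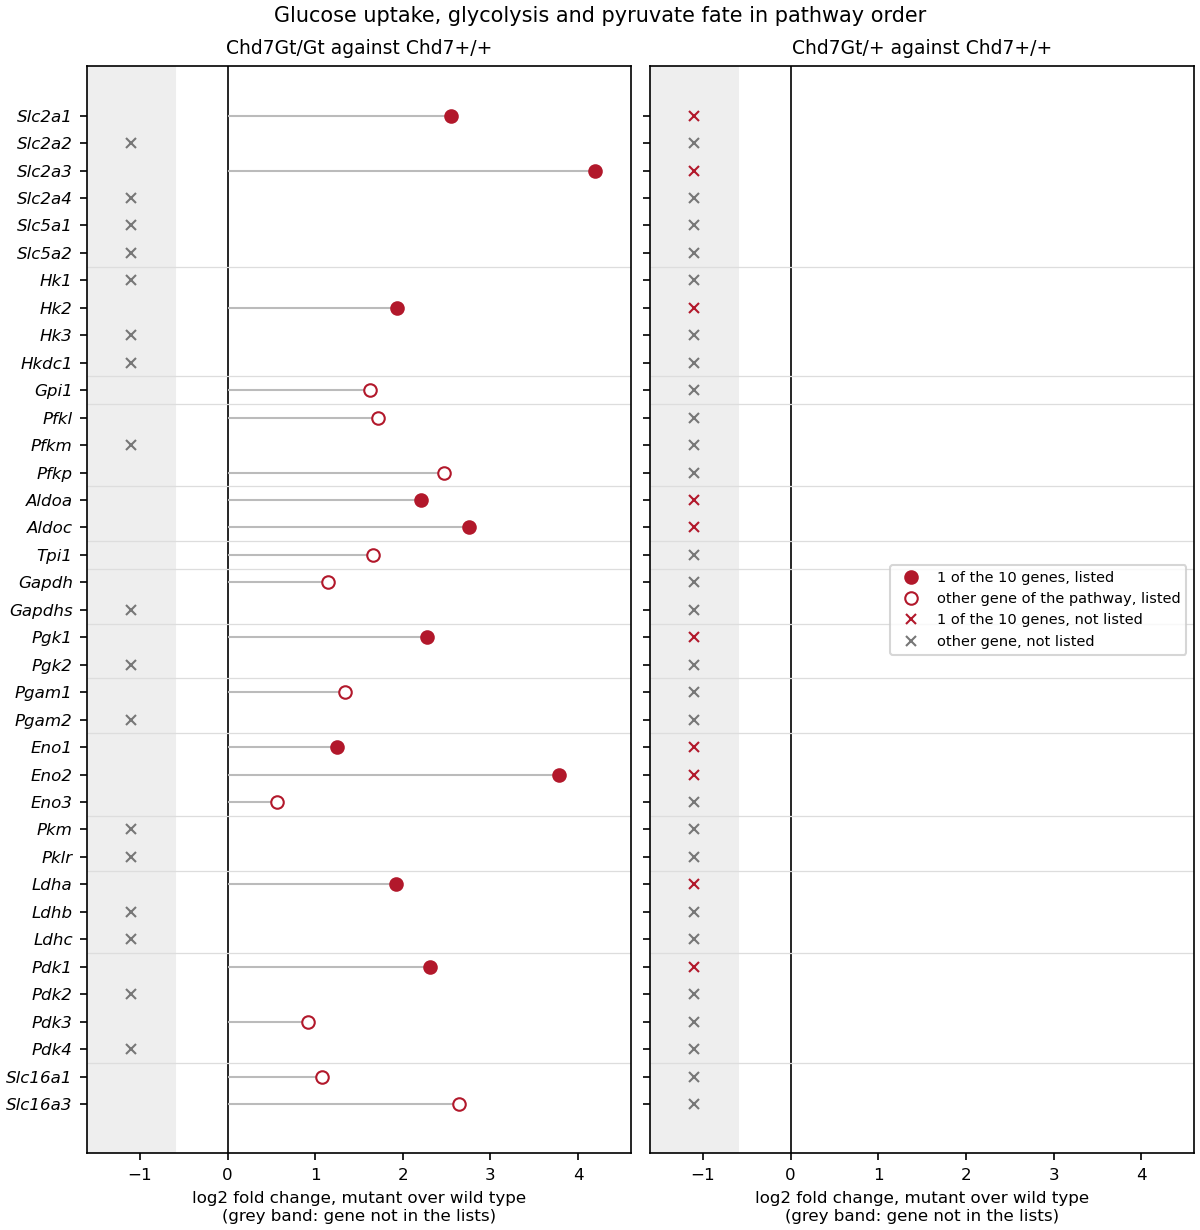
Log2 fold change over wild type for the 37 genes from glucose uptake to lactate export, 1 gene per row in pathway order, for Chd7Gt/Gt on the left and Chd7Gt/+ on the right; filled circles are the 10 genes, open circles other listed genes, crosses in the grey band genes that are not listed. In Chd7Gt/Gt 20 of the 37 genes are listed, all to the right of 0, and in Chd7Gt/+ none is listed.

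The stretches before the start sites of 9 of these 10 genes were searched for the core letters of the hypoxia response element, to which hypoxia-inducible factors bind. The letters searched were ACGTG, and its variant GCGTG, on both strands of the 250 bases before each start site annotated by RefSeq on build GRCm38.p6. Each copy of the palindrome CACGTG holds 2 ACGTG matches, 1 on each strand. The windows below are those of the set that hold ACGTG, 1 for each of 5 genes, and, for contrast, that of Eno2, which holds neither form while its fold change was the second largest of the 10. They are written 5′ to 3′ on the strand of the gene and end at the base before the start site. Capitals mark ACGTG, which reads CACGT where the match is on the other strand.
Slc2a1, chr4:119108495-119108744, plus strand: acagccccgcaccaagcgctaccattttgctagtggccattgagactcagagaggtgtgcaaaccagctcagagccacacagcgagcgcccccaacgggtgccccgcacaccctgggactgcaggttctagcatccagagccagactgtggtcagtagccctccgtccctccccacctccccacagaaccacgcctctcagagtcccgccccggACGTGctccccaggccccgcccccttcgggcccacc
Hk2, chr6:82774455-82774704, minus strand: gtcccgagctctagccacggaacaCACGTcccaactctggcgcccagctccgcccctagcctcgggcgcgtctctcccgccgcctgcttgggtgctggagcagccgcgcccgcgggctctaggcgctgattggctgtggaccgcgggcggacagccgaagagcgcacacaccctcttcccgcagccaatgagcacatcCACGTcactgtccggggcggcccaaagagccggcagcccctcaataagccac
Aldoa, chr7:126799255-126799504, minus strand: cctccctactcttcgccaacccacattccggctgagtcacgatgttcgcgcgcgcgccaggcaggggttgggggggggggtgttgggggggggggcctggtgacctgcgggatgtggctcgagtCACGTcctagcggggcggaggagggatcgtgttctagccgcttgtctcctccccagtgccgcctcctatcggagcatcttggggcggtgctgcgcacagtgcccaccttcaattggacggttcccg
Pgk1, chrX:106186850-106187099, plus strand: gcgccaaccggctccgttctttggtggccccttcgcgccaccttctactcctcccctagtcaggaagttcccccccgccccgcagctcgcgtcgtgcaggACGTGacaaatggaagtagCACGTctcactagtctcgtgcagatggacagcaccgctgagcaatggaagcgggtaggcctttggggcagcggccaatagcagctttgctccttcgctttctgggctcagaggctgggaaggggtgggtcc
Ldha, chr7:46845554-46845803, plus strand: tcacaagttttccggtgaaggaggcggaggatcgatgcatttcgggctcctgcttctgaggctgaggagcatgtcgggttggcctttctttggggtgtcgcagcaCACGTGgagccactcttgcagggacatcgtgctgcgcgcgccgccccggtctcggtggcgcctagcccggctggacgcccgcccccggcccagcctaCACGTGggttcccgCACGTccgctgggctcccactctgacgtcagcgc
Eno2, chr6:124769674-124769923, minus strand: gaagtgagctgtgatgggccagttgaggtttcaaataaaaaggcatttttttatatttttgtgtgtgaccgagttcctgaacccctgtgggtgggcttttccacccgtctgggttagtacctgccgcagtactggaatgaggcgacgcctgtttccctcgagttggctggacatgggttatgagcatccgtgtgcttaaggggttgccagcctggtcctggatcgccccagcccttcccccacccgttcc

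Ldha had the densest window, with 5 ACGTG matches in 3 places, at 145, 48 and 34 bases before its upstream start site. The first 2 places were CACGTG palindromes. Pgk1 had 1 match on each strand, at 150 and 131 bases, and Hk2 had 2 matches, at 226 and 52 bases before the start site. Slc2a1 had a single match at 36 bases and Aldoa a single one at 126 bases before the middle of its 3 start sites. The variant GCGTG was found before Slc2a1, Aldoc, Eno1, Pdk1 and the downstream start site of Ldha. Of the 10 genes, 9 were in the table of start sites, with 16 windows, of which 6 held ACGTG. Slc2a3, the gene with the largest fold change of the 10, was not in it and was not searched. These windows include overlapping pairs for Aldoa and Eno1, and the 2 Aldoa windows share a single site.

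By share of windows, ACGTG stood in 37.5% of the 16 windows of these genes and in 27.1% of 384 windows of genes listed as higher in homozygotes. It stood in 14.5% of 697 windows of genes listed as lower and in 16.6% of all 32851 windows. The windows cover 278 of the 416 higher genes and 470 of the 669 lower ones. The 16 windows are also counted in the sets of higher genes and of all windows. GCGTG stood in 8 of the 16 windows of these genes, in 48.7% of the windows of higher genes, 34.4% of those of lower genes and 28.2% of all windows. CACGTG stood in 6.25%, 9.38%, 5.60% and 6.02% of the same 4 sets. The median GC content of the windows was 63.4% for these genes, 60.6% for higher genes, 58.4% for lower genes and 52.4% for all windows. The GCGTG shares stood in the same order as GC content and the ACGTG and CACGTG shares did not, and the part of base composition in any of them was not tested. A match is a description of letters and not a binding site, and a window without a match says only that these letters are not in it.

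**Figure D2:**
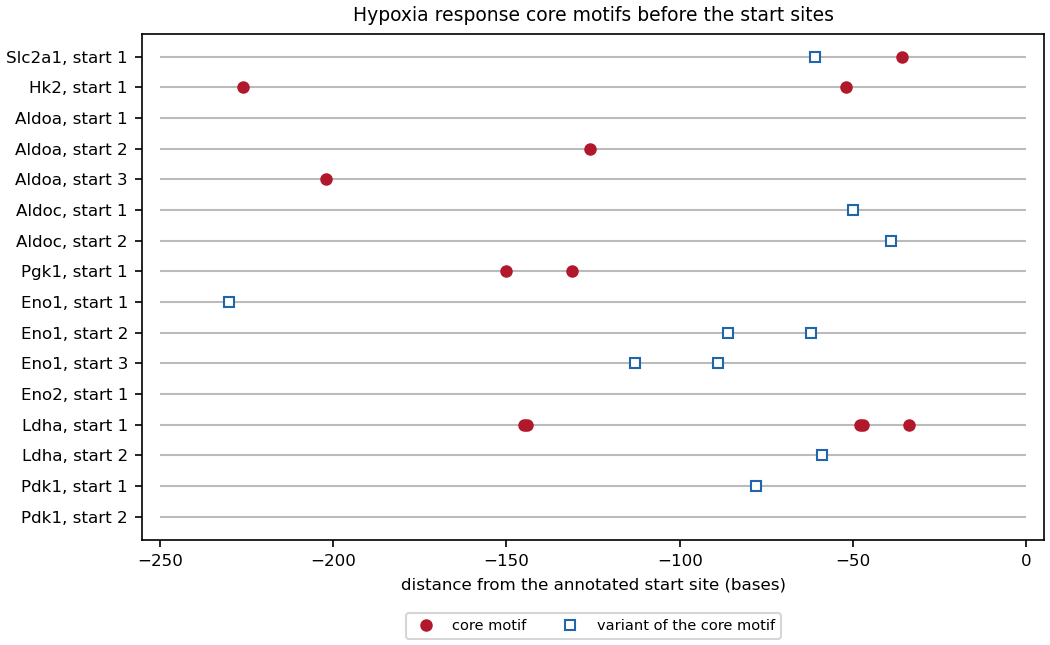
Positions of the hypoxia response core motif (red circles) and its variant (open blue squares) in the 250 bases before each annotated start site, with distance from the start site in bases on the horizontal axis and 1 row per start site of the 9 genes in the table. Ldha start 1 carries matches in 3 places, and the single Eno2 row carries none. Slc2a3 was not searched and has no row.

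Both glucose transporter genes rose. Slc2a3, which encodes the high-affinity transporter GLUT3 of neurons and placenta, was 18.3-fold higher in Chd7Gt/Gt otocysts (log2 fold change 4.20, adjusted p given as 0 in the authors' deposited table). It ranked 8 of 416 by fold change among the higher genes. Slc2a1 encodes GLUT1, the transporter behind basal glucose supply in most cells, and was 5.87-fold higher (log2 fold change 2.55, adjusted p 1.24e-09, from the authors' deposited table), at rank 54. The log2 fold change of Slc2a3 was larger than that of Slc2a1 by 1.64, a difference for which no test could be made from the lists. Among the 27 genes with a solute carrier symbol listed in homozygotes, 14 higher and 13 lower, Slc2a3 stood at rank 1 and Slc2a1 at rank 5 by log2 fold change in the authors' deposited table. The remaining uptake genes, Slc2a2 and Slc2a4, known as the liver and the insulin-responsive transporters, and the sodium-coupled Slc5a1 and Slc5a2, were not listed in either genotype.

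The trapping step was represented by Hk2, the inducible hexokinase that can sit on the mitochondrial surface. It was 3.83-fold higher in Chd7Gt/Gt otocysts (log2 fold change 1.94, adjusted p 2.4e-09, from the authors' deposited table). Its relatives Hk1, the widespread form, and Hk3 and Hkdc1 were not listed. The next enzyme, the isomerase Gpi1, was listed at a log2 fold change of 1.63 (adjusted p 4.33e-05, from the authors' deposited table). Of the phosphofructokinase genes, which encode the committing step, the platelet-type Pfkp had a log2 fold change of 2.48 (adjusted p 2.92e-11) and the liver-type Pfkl one of 1.72 (adjusted p 1.42e-06), both from the authors' deposited table, while the muscle-type Pfkm was not listed.

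Both aldolase genes of the set rose. Aldoc, the aldolase isoenzyme known from brain, was 6.75-fold higher in Chd7Gt/Gt otocysts (log2 fold change 2.75, adjusted p 1.53e-07, from the authors' deposited table). Aldoa, the isoenzyme of muscle and most embryonic cells, was 4.62-fold higher (log2 fold change 2.21, adjusted p 2.54e-06, from the authors' deposited table). Aldoart1 and Aldoart2, retrogene copies of Aldoa known from mouse testis and chosen here after their values were seen, were also listed as higher, at 2.34 and 2.17 (log2, from the authors' deposited table). A share of 6.27% of the 50-base windows of the longest coding Aldoa transcript also occurred in Aldoart1 transcripts, so part of the reads of these 2 genes can be counted for either, and their values are uncertain to that extent. Aldoart2 shared no such window with that Aldoa transcript, and 0.311% of its own windows with Aldoart1.

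In the energy-yielding part of the pathway, Pgk1, whose enzyme makes the first ATP, was 4.83-fold higher in Chd7Gt/Gt otocysts (log2 fold change 2.27, adjusted p 2.67e-07, from the authors' deposited table). The listed genes beside it that are not among the 10 had smaller fold changes. Tpi1, which interconverts the triose phosphates, was at 1.65, the dehydrogenase gene Gapdh at 1.15, and the mutase gene Pgam1 at 1.34 on the log2 scale, with adjusted p-values of 6.34e-06, 0.00237 and 0.000820 according to the authors' deposited table. The testis forms Gapdhs and Pgk2 and the muscle form Pgam2 were not listed. Pgk1 lies on the X chromosome, and the X-inactivation transcript Xist had a log2 fold change of 9.64 in the same comparison in the authors' deposited table. Xist was not listed in Chd7Gt/+ otocysts, as none of the 10 genes was. Embryo sex is not in the labels, and the groups may differ in it. The part of sex in the value of Pgk1 or of any other of the 10 genes, or in the difference between the genotypes, was not tested.

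Of the steps with more than 1 listed gene, enolase had the widest spread of fold changes. Eno2, called neuron-specific enolase after its main adult site and with neither motif in the window above, was 13.8-fold higher in Chd7Gt/Gt otocysts (log2 fold change 3.78, adjusted p given as 0 in the authors' deposited table), at rank 13 of 416. Eno1, the enolase of most tissues, was 2.37-fold higher (log2 fold change 1.24, adjusted p 0.00133, from the authors' deposited table). At rank 228 it was the single gene of the 10 below the median of all higher genes, and it also had the largest adjusted p of the 10. The log2 fold change of Eno2 exceeded that of Eno1 by 2.54, and that of the muscle enolase gene Eno3 stood lower still, at 0.56 (adjusted p 0.00697, from the authors' deposited table). These differences between isoenzymes carry no error in the lists and were not tested.

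At the end of the pathway, Ldha, the lactate dehydrogenase subunit that favours lactate formation and the gene whose window above held ACGTG in 3 places, was 3.79-fold higher in Chd7Gt/Gt otocysts (log2 fold change 1.92, adjusted p 6.37e-05, from the authors' deposited table). Its counterparts Ldhb and Ldhc were not listed. The pyruvate kinase genes Pkm and Pklr were not listed in either genotype, directly or under an older symbol, which made pyruvate kinase the single enzyme step of the 11 from hexokinase to lactate dehydrogenase with no listed gene. The other 10 steps each had at least 1 gene listed as higher and none listed as lower. A step held from 1 gene, as for the isomerase, to 4, as for hexokinase. As background, the homozygous lists held 1.78% of annotated protein-coding genes as higher and 2.97% as lower. The steps too were chosen with earlier results known. Their count is a description, and no difference from that background was tested. Pdk1, the kinase that shuts off pyruvate dehydrogenase, was 4.95-fold higher (log2 fold change 2.31, adjusted p 8.55e-14, from the authors' deposited table), and that p was the smallest above 0 in the list of higher genes. Its relative Pdk3, also X-linked, was at 0.92 (adjusted p 0.0420, from the authors' deposited table), and Pdk2 and Pdk4 were not listed. Of the monocarboxylate transporter genes that carry lactate across the membrane, Slc16a3 had a log2 fold change of 2.64 (adjusted p given as 0) and Slc16a1 one of 1.08 (adjusted p 0.00620), both from the authors' deposited table.

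**Figure D3:**
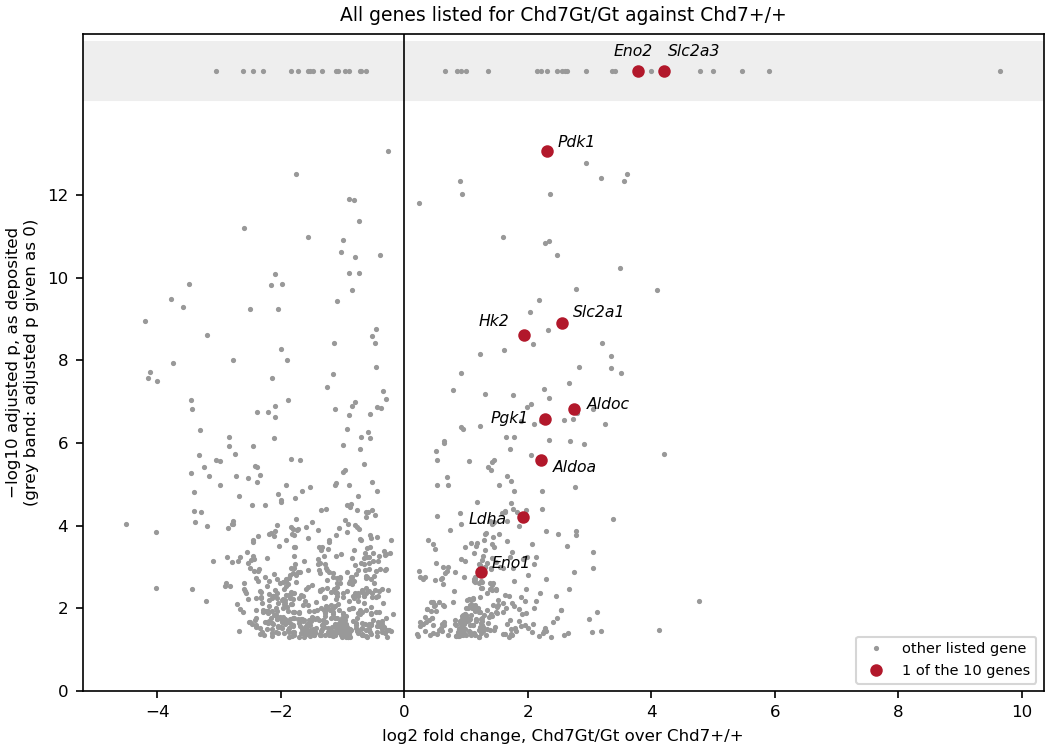
Log2 fold change of Chd7Gt/Gt over Chd7+/+ on the horizontal axis against −log10 of the deposited adjusted p on the vertical axis, for all 1085 listed genes (grey) and the 10 genes (red, named); genes whose adjusted p is given as 0 lie in the grey band at the top. Slc2a3 and Eno2 lie in that band, Eno1 lies lowest, and all 10 are right of 0.

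By size, 9 of the 10 genes lay above the median log2 fold change of all genes listed as higher, according to the authors' deposited table. Slc2a3 exceeded 98.1% of those 416 genes, Eno2 96.9%, Aldoc 89.9% and Slc2a1 87.0%. Pdk1, Pgk1 and Aldoa exceeded 82.9%, 81.7% and 79.6% of them, Hk2 and Ldha 72.8% and 72.6%, and Eno1 45.2%. The order by adjusted p was not the order by fold. Pdk1 had a smaller log2 fold change than Slc2a1 and Aldoc but a smaller adjusted p than either, and Aldoa had a larger one than Hk2 but a larger adjusted p (2.54e-06 against 2.4e-09 in the authors' deposited table). The wider pathway held 37 genes from glucose uptake to lactate export, the 10 included. In homozygotes 20 of the 37 were listed as higher, 0 as lower and 17 were not listed. The median log2 fold change among those listed was 1.93 in the authors' deposited table. The background shares there were 1.78% for higher and 2.97% for lower calls among annotated protein-coding genes. The 37 genes were chosen with earlier results known, so these counts are a description and no difference was tested. The 10 listed genes outside the named set had a median of 1.48, with a range from 0.56 for Eno3 to 2.64 for Slc16a3, in the authors' deposited table. In heterozygotes 0 of the 37 were listed. The background shares there were 0.182% for higher and 0.428% for lower calls among annotated protein-coding genes. With shares this small, 0 of 37 does not set the pathway apart from other genes, and no difference was tested. The heterozygous lists held 43 higher genes with log2 fold changes from 0.07 to 4.99 and 95 lower genes from 0.11 to 5.54 in size in the authors' deposited table, so genes with small fold changes could enter them. A gene outside the lists may have missed the authors' threshold or may not have been measured.

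Sequence shared with other genes differed widely among the 10. In Slc2a3, Hk2, Aldoc and Pdk1 none of the 50-base windows of the longest coding transcript occurred in an annotated transcript of another gene, and the shares were 0.255% for Eno2 and 1.74% for Slc2a1. Aldoa shared 13.5% and Ldha 16.6% of its windows. Pgk1 shared 68.0%, nearly all of it with the copy Pgk1-rs7, and Eno1 shared 72.2%, most of it with the copy Eno1b. Neither copy was listed by its current symbol, and older symbols of the copies were not searched, so either may be listed under another name. How the authors counted reads that fit several genes is not given in the sources used here, so the values of Eno1 and Pgk1 are uncertain to that extent. Among the 4 genes with no shared window, the log2 fold change was 4.20 for Slc2a3, 1.94 for Hk2, 2.75 for Aldoc and 2.31 for Pdk1, by the authors' deposited table. Outside the 10, Gapdh shared 82.5% and Pgam1 41.5% of their windows. Whether shared sequence set the size of any of these fold changes was not tested.

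**Figure D4:**
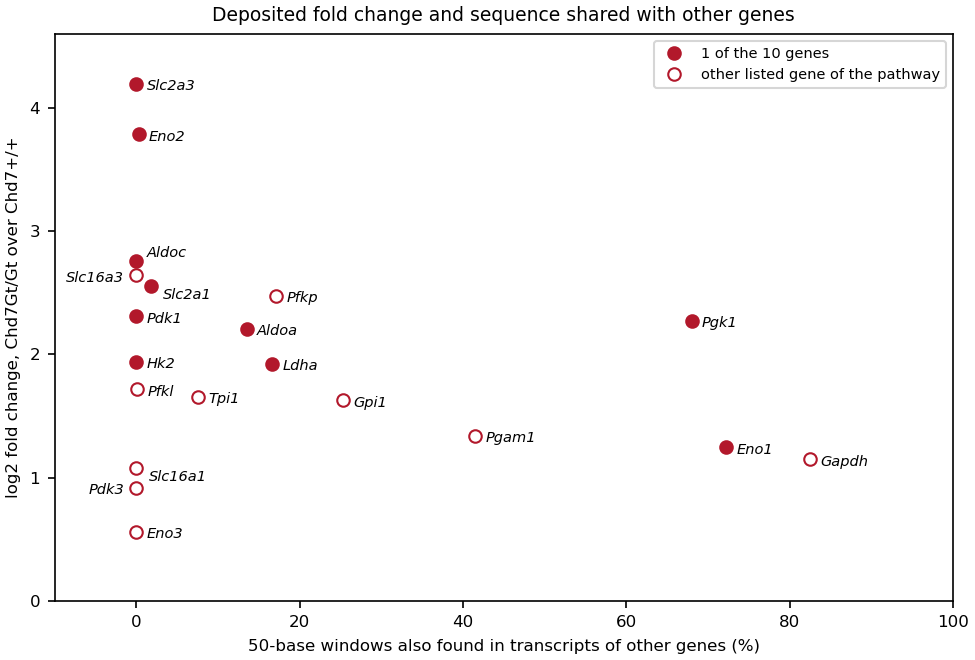
Share of 50-base windows of the longest coding transcript that also occur in transcripts of other genes, in percent, against the log2 fold change of Chd7Gt/Gt over Chd7+/+, for the 10 genes (filled) and the other 10 listed genes of the pathway (open). Slc2a3 and Eno2 lie at the top left, and Gapdh, Eno1 and Pgk1 lie at shares from 68.0% to 82.5%.

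Transcript length, which goes with direction in the homozygous lists, was set beside these values. Taking each gene's longest annotated transcript, the median length was 2790.5 nt for the 10 genes, 2698 nt for genes listed as higher and 4868.5 nt for genes listed as lower. At or under the median length of all listed genes lay 7 of the 10. The other 3, Slc2a3, Hk2 and Pdk1, belonged to the longer listed genes. Their log2 fold changes were 4.20, 1.94 and 2.31 according to the authors' deposited table. Higher genes made up 18.7% of the longer listed genes and 57.8% of the shorter ones. Because the 10 names were picked with earlier results known, their direction cannot be weighed against these shares. The part of transcript length in their rise was not tested.

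Genes that connect to glycolysis were listed unevenly in homozygotes, and none of them was listed in heterozygotes. Beside these counts, 1.78% of annotated protein-coding genes were listed as higher in homozygotes and 2.97% as lower, and no difference from these shares was tested. Of 5 genes that set the level of fructose 2,6-bisphosphate, the main activator of phosphofructokinase, 1 was listed by its current symbol, Pfkfb3, which rose (log2 fold change 2.31, adjusted p given as 0 in the authors' deposited table). A further one, Tigar, was listed under its older symbol 9630033F20Rik and fell by 1.53 on the log2 scale (adjusted p 0.0482, from the authors' deposited table). Glycogen genes had 4 of 11 listed, all 4 higher. They were Ppp1r3c, which targets a phosphatase to glycogen, at 2.67, the glycogen phosphorylase gene Pygl at 1.60, the glycogen synthase gene Gys1 at 1.28 and the phosphoglucomutase gene Pgm2 at 1.65 (log2, from the authors' deposited table). The symbol Pgm2 is also an older name of the gene now called Pgm1, and the lists do not tell which of them is meant. Of the serine branch, which leaves glycolysis after phosphoglycerate kinase, 2 of 5 genes rose, Psat1 at 1.10 and Shmt2 at 1.05, and of gluconeogenesis 1 of 7, the mitochondrial Pck2 at 1.54 (log2, from the authors' deposited table).

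Mitochondrial lists are given beside the background of 1.78% of annotated protein-coding genes listed as higher and 2.97% as lower. Their counts are a description, and no difference from that background or from the glycolytic list was tested. Of 9 genes for pyruvate entry and the pyruvate dehydrogenase complex, 1 was listed, the activating phosphatase gene Pdp1, which fell by 0.46 on the log2 scale (adjusted p 0.00542, from the authors' deposited table). Of 17 citric acid cycle genes 1 was listed, Ogdh, which fell by 0.54 (adjusted p 0.0411, from the authors' deposited table). Of 60 respiratory chain genes 2 were listed, both higher and both known as forms induced at low oxygen, Ndufa4l2 at 3.56 and Cox4i2 at 3.25 (log2, from the authors' deposited table). Of 7 pentose phosphate genes none was listed. Of 10 oxygen-sensing genes 2 were listed, the prolyl hydroxylase genes Egln3 at 3.18 and Egln1 at 1.76 (log2, from the authors' deposited table), whose products mark hypoxia-inducible factors for breakdown. The genes of the factors themselves, Hif1a, Epas1, Hif3a and Arnt, were not listed.

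**Figure D5:**
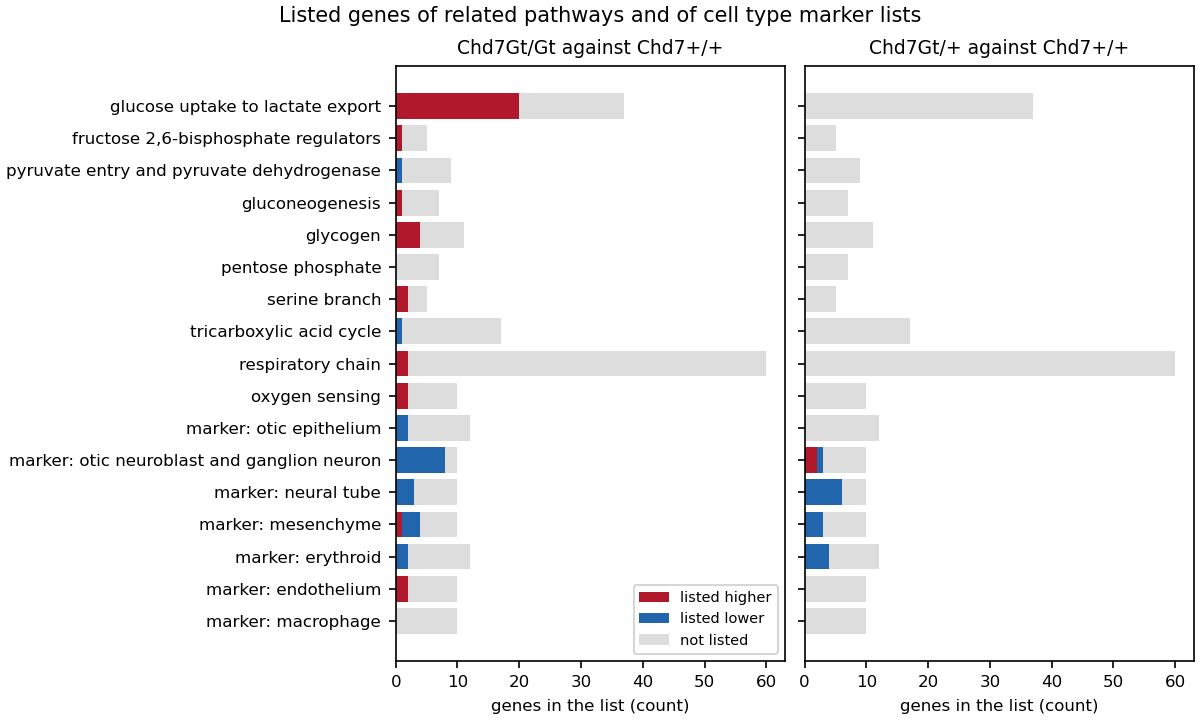
Number of genes listed as higher (red), listed as lower (blue) and not listed (grey) in each pathway list and each cell type marker list, for Chd7Gt/Gt on the left and Chd7Gt/+ on the right. Genes are matched by current symbol, so Tigar, listed as lower in Chd7Gt/Gt under its older symbol, is drawn as not listed. The list from glucose uptake to lactate export has 20 higher genes of 37 in Chd7Gt/Gt and 0 in Chd7Gt/+, where lower genes lie in marker lists alone.

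Marker genes of the cell types in and around the otocyst were counted in the same lists. As background, the homozygous lists held 2.97% of annotated protein-coding genes as lower and 1.78% as higher. The heterozygous lists held 0.428% as lower and 0.182% as higher, and no difference from these shares was tested. Otic neuroblast and ganglion neuron markers had 8 of 10 listed as lower in homozygotes, with log2 fold changes from -4.13 to -1.83 in the authors' deposited table. Neural tube markers had 3 of 10 lower, mesenchyme markers 3 lower and 1 higher of 10, erythroid markers 2 of 12 lower, otic epithelium markers 2 of 12 lower and macrophage markers 0 of 10 listed. Endothelial markers had 2 of 10 higher, Pecam1 at 0.92 and Emcn at 0.60 (log2, from the authors' deposited table). In heterozygotes, where none of the 10 glycolysis genes was listed, 6 of 10 neural tube, 3 of 10 mesenchyme and 4 of 12 erythroid markers were lower, and neuroblast and ganglion markers had 2 higher and 1 lower of 10. The heat shock genes Hspa1a and Hspa1b, named after their values were seen, stood at 5.47 and 4.99 in homozygotes (log2, from the authors' deposited table). The part of these cell types and of the heat shock response in the rise of the glycolysis genes was not tested. In RNA from whole vesicles, a change in the number of cells of a type and a change in RNA per cell cannot be told apart.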

How the data were processed

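RNA sequencing of otocysts was analysed from 4 lists of called genes, 1 for each mutant genotype and direction. Beside the symbol of each gene the authors deposited their log2 fold change and their adjusted p-value, per the file headers. Build mm9, Bowtie2 2.0.6 and DESeq 1.22.1 appear in the submitters' processing notes without roles. The sources used here do not give filters on low counts or the handling of reads that fit several genes. Depth is unknown.

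Groups follow the genotype in each sample title. The authors' calls were taken as deposited, and the count model planned for counts per library was not run. Genes were matched by symbol, and through RefSeq synonyms as an alternative. In the homozygous lists 1079 of 1085 symbols had a GENCODE M21 transcript length. That annotation and the RefSeq start sites (GRCm38.p6) are of another build than mm9 and were joined by symbol alone. Shared sequence was counted as exact 50-base windows, on either strand, over all GENCODE transcripts. The motif search was tested on simulated sequences. Linear folds are 2 to the power of the deposited log2 value. Stricter thresholds on adjusted p (0.01 and 0.001) and on absolute log2 fold change (1 and 2) were tried.

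The 10 genes and the gene lists were chosen with earlier results of these data known. Named genes are the 10, every listed gene from glucose uptake to lactate export, up to 6 listed genes of each further pathway list by adjusted p, and Chd7. Some genes of the pathway lists are not reported here. Any other gene with a value is a marker of the lists, or is marked in the text as named with its value known. Xist and 9630033F20Rik were named in this way too. Computation used Python 3.11.15, pandas 2.3.3 and matplotlib 3.10.9.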

Additional observations from a re-analysis of the deposited data

How the results depend on the processing

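The count of the 10 genes listed as higher in Chd7Gt/Gt was 10 at an adjusted p of at most 0.01, at an absolute log2 fold change of at least 1 and with synonyms, 9 at an adjusted p of at most 0.001, where Eno1 was lost, and 7 at an absolute log2 fold change of at least 2, where Hk2, Eno1 and Ldha were lost. The count from glucose uptake to lactate export was 20 as deposited, 19 at an adjusted p of at most 0.01 and 15 at one of at most 0.001. It was 18 at an absolute log2 fold change of at least 1 and 9 at one of at least 2, since fewer genes pass that size. None of the 10 was listed in Chd7Gt/+ under any of these settings. No paired analysis was possible because the lists hold comparisons and no values per library, and for the same reason another normalization, a filter on low counts, another test and leaving out each library were not run.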

Other observations

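Further monocarboxylate transporter genes, chosen after their values were seen, were listed in Chd7Gt/Gt, Slc16a9 at 2.79 and Slc16a6 at 2.32 (log2, from the authors' deposited table), and neither was listed in Chd7Gt/+. The genes that follow were also named after their values were seen. Gm13315, whose annotated transcripts share 50-base windows with Ldha, was listed as higher in Chd7Gt/Gt at 1.74 (adjusted p 0.0448 in the authors' deposited table). Outside the respiratory chain list, Ndufv3 at 0.91 and Cox6b2 at 0.92 were also listed as higher in Chd7Gt/Gt (log2, from the authors' deposited table).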
